A study of Mus musculus with 2 samples.

Results

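The voltage-gated potassium channel alpha subunits are the pore-forming proteins of the Kv channels. They were taken here as all genes whose array name is Kcna, Kcnb, Kcnc, Kcnd, Kcng, Kcnh, Kcnq or Kcnv followed by a number. The rule uses names only, no measured value, and it found 36 of the 37074 gene names on the array, with 74 of its 56605 probes. All 36 mouse genes of RefSeq (GRCm38.p6) with such a symbol were on the array. Total RNA of the mouse olfactory bulb, where the sensory neurons of the nose send their axons, was labelled with Cy3 and measured on 2 Agilent arrays, each with 1 sample. The control mouse was kept under standard odor conditions and the other mouse under odor-enriched conditions, and the comparison asks which transcripts differed with odor enrichment. The sources used here give no strain, sex, age, odor or length of exposure. With 1 array per group there are no replicates, so no test between the groups was possible, and every difference below describes these 2 arrays and not the spread between mice.

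Kv alpha subunits assemble around a shared pore that opens when the membrane is depolarized, and the potassium current through it ends the action potential and sets how fast a neuron can fire again. The Shaker (Kcna), Shab (Kcnb), Shaw (Kcnc) and Shal (Kcnd) subfamilies and the more distant eag-related (Kcnh) and KvLQT (Kcnq) subfamilies form channels of their own, while the Kcng and Kcnv proteins are silent subunits that reach the surface only together with Kcnb subunits. In the olfactory bulb Kv channels shape the firing of the mitral cells, its output neurons, and Kcna3 is known for carrying a large share of their outward current.

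The probes that carry the findings below are shown first. Each was 60 bases long, the coordinates and strands are those of the deposited files (mm9), and the first 30 bases of each are printed 5′ to 3′. The 5 Kcnq1 probes are shown because they lie at different places of the gene and disagreed. Probes 4 and 5 overlap by 51 bases, and capitals mark the part of the overlap within the printed bases.
Kcnq1 probe 1, chr7:150295215-150295274, plus strand: ttctagattggtggtctaagatcttctttg
Kcnq1 probe 2, chr7:150334693-150335442, plus strand: cccaagaacatgccaggaggcttcctcatt
Kcnq1 probe 3, chr7:150370348-150370407, plus strand: cttctcctcctactttgtctacttggctga
Kcnq1 probe 4, chr7:150612887-150612946, plus strand: aatttcgtaGTATGATCTTGATTGAGAGAC
Kcnq1 probe 5, chr7:150612896-150612955, plus strand: GTATGATCTTGATTGAGAGACttttccaaa
The probes of Kcnc4 and of Kcnh2 are shown because each pair covers different sequence of its gene and gave nearly the same difference, and that of Kcna2 because it gave the lowest difference of all members.
Kcnc4 probe 1, chr3:107241564-107241623, minus strand: gggggaatttcatttcttttgtgtgtctcc
Kcnc4 probe 2, chr3:107243629-107243688, minus strand: tgagttatgtaggttagatagattccagat
Kcnh2 probe 1, chr5:23825407-23825466, minus strand: tgatgactatgaataataaataattatcct
Kcnh2 probe 2, chr5:23827188-23827460, minus strand: tgaacaggctggaaacccggctaagtgcag
Kcna2 probe, chr3:106909700-106909759, plus strand: actcacatgactgaactttggggattaatc
Kcnq1 probe 2 and Kcnh2 probe 2 cover more genome than their own length and so span an intron of the listed alignment. Whether the other probes lie in coding or untranslated sequence is not reported here, since no annotation of mm9 was used.

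Both arrays held 62976 spots, with 73.7% (control) and 67.6% (odor enriched) of the non-control spots well above background, and no spot was saturated. Values below are log2 signals relative to the array's 75th percentile, which was a signal of 250.0 for the control and 202 for the other array, or the processed signal itself where called a signal. Levels are compared between the arrays for the same probe and never between probes. The summed levels of marker lists, given below, add the signals of different genes, so bright probes weigh more in them. A difference is odor enriched minus control, and a gene's difference averages the probes that were well above background on both arrays. Repeat spots of 1 probe had a pooled SD of 0.05 for the difference, and different probes of 1 gene a pooled SD of 0.63, which is the larger error behind the single-probe values. The labels name the tissue as neurons but the source as the bulb, and they describe no sort. All 8 oligodendrocyte, 7 astrocyte and 7 endothelial markers were well above background on both arrays.

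Of the 32 members described here, 29 were measured on both arrays. Of these 2 (6.90%), Kcnq1 and Kcnh8, were higher by 2-fold or more with odor enrichment, where 11.5% of all 23872 genes measured were. Lower by 2-fold or more were 4 (13.8%), namely Kcna2, Kcnc2, Kcnc4 and Kcnh2, where 5.52% of all genes were. The median difference of the members was -0.20, against 0.0016 for all genes, and 20 members (69.0%) lay below 0, against 49.9% of all genes. The differences ran from -1.32 for Kcna2 to 2.08 for Kcnq1, and 23 of the 29 members differed by less than 2-fold. At 3-fold only Kcnq1 was higher and 0 members were lower, where 5.39% and 1.38% of all genes were. At 1.5-fold 2 members were higher and 8 lower, where 21.2% and 16.3% of all genes were. Kcnc genes made up 2 of the 4 lower calls, and without them 2 of 26 members were past 2-fold in each direction, with a median of -0.14. The split of the calls depended on the scaling, with 1 member higher and 5 lower under median centring of the arrays, where 8.95% of all genes were higher and 8.63% lower. With the deposited series matrix values 2 members were higher and 0 lower, where 18.7% of all genes were higher and 2.44% lower. Those settings shift all genes together and moved the median of all genes to -0.17 and to 0.33. With normexp background correction 1 member was higher and 0 were lower, where 5.26% and 2.61% of all genes were, and the members' median of 0.060 lay 0.03 below that of all genes. Scaling on the mean of the spike-in probes made 0 members higher and 28 lower, where 90.1% of all genes were lower. In tissue RNA, fewer cells of a type and less RNA per cell cannot be told apart.

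**Figure D1:**
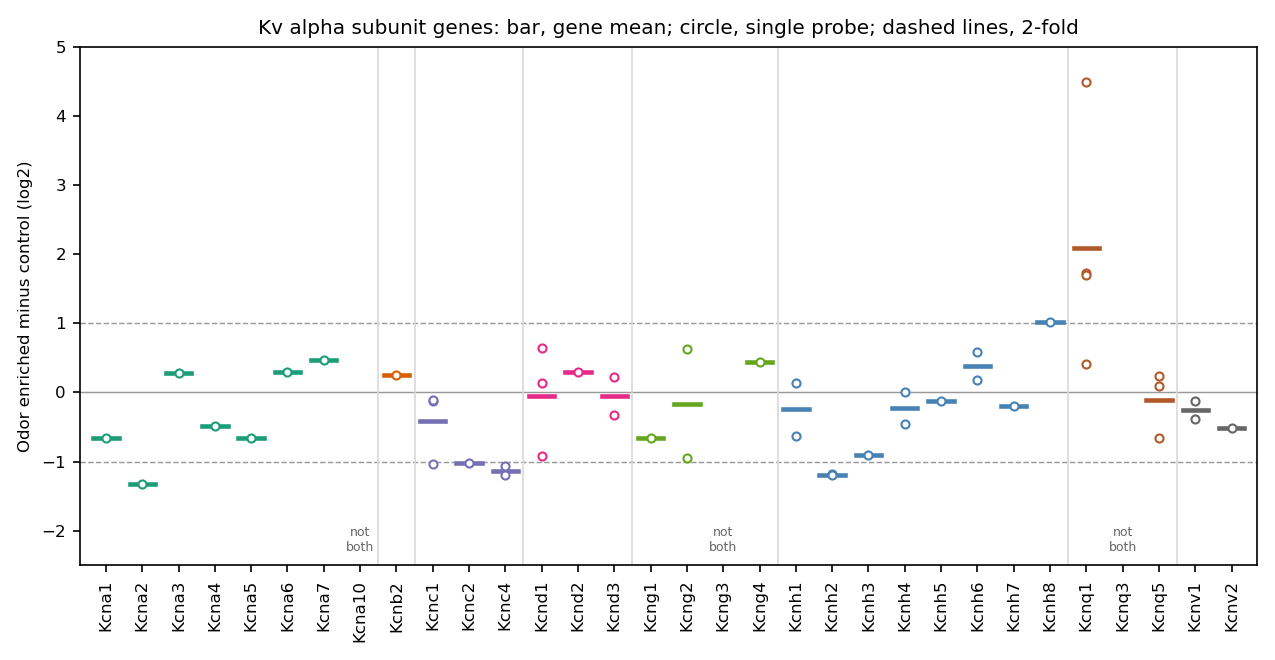
Difference between the odor-enriched and the control array (log2, vertical axis) for the 32 members described, grouped and coloured by subfamily. Bars are gene means, circles are single probes well above background on both arrays, dashed lines mark 2-fold, and "not both" marks Kcna10, Kcng3 and Kcnq3. Kcnq1 stands at 2.08 with a probe at 4.50, and Kcna2, Kcnc2, Kcnc4 and Kcnh2 lie below the lower 2-fold line.

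Over single probes, 46 of the 62 of these genes were well above background on both arrays, 5 in the control only, 0 in the odor-enriched array only and 11 in neither. Of all 56593 probes usable on both arrays, 36639 were above background on both and 14871 on neither. Above background in the control only were 4366, and in the odor-enriched array only 717. Of the 46, 4 were higher and 7 lower by 2-fold or more, where 11.6% and 6.51% of the 36639 probes measured in all were. No member probe lay in an area of the slide whose spots deviated together by more than the limit of 1.2 (log2). The median difference of the spots around each member probe ran from -0.35 to 0.70.

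The Shaw-related subfamily, Kcnc, encodes the Kv3 channels, which open at strongly depolarized potentials, close fast and let neurons fire at high rates. Of the 3 genes described, Kcnc1, Kcnc2 and Kcnc4, each lay below 0, with a median of -1.02, and 2 were at least 2-fold lower. Over all genes, 11.5% were higher and 5.52% lower by 2-fold, and these shares apply to every subfamily count. The 6 measured Kcnc probes were all lower in the odor-enriched array, where 18569 of all 36639 measured probes were. By at least 2-fold 4 of them were lower, where 6.51% of all were. These probes come from 3 genes on 1 pair of arrays and are not replicates. Kcnc4 had signals of 183 (control) and 64.1 (odor enriched) on its first probe. On its second probe the signals were 35.6 and 13.7. The differences of these probes were -1.20 and -1.06, which made the gene 2.19-fold lower (-1.63 to -2.76). Kcnc2 had signals of 63.4 and 25.2 and was 2.03-fold lower (-1.98 to -3.00). The second Kcnc2 probe was above background in the control only (8.27 and 4.95) and allowed no fold.

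Kcnc1, which with Kcnc2 is known from fast-spiking interneurons, stood at -0.42, under 2-fold, and its 3 probes did not give 1 answer. The probe with a control signal of 679.6 had 268 in the odor-enriched array, a difference of -1.03. The other probe of the same RefSeq record had 192 and 142, a difference of -0.12. The probe of another transcript variant had 75.2 and 56.4, a difference of -0.10. All were lower in the odor-enriched array, by amounts that differed by 0.93 between the lowest and the highest probe. The order by difference was Kcnc4 (-1.13), Kcnc2 (-1.02) and Kcnc1 (-0.42), and Kcnc4 and Kcnc2 differ from each other by less than the SD of 0.63 between probes of a gene. These 3 genes kept a negative difference in 11 of 11 other settings that do not rest on the spike-in probes, and their median ran from -1.20 to -0.33. The 2-fold calls of Kcnc2 and Kcnc4 ended with normexp, at -0.28 and -0.39, and with the series matrix values, at -0.69 and -0.80. The call of Kcnc4 held in 9 of 11 other settings and that of Kcnc2 in 6, since Kcnc2 also fell short of 2-fold with the percentile over detected probes (-0.94), with probes above background on either array and without the filter on dim probes (-0.72 in both).

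**Figure D2:**
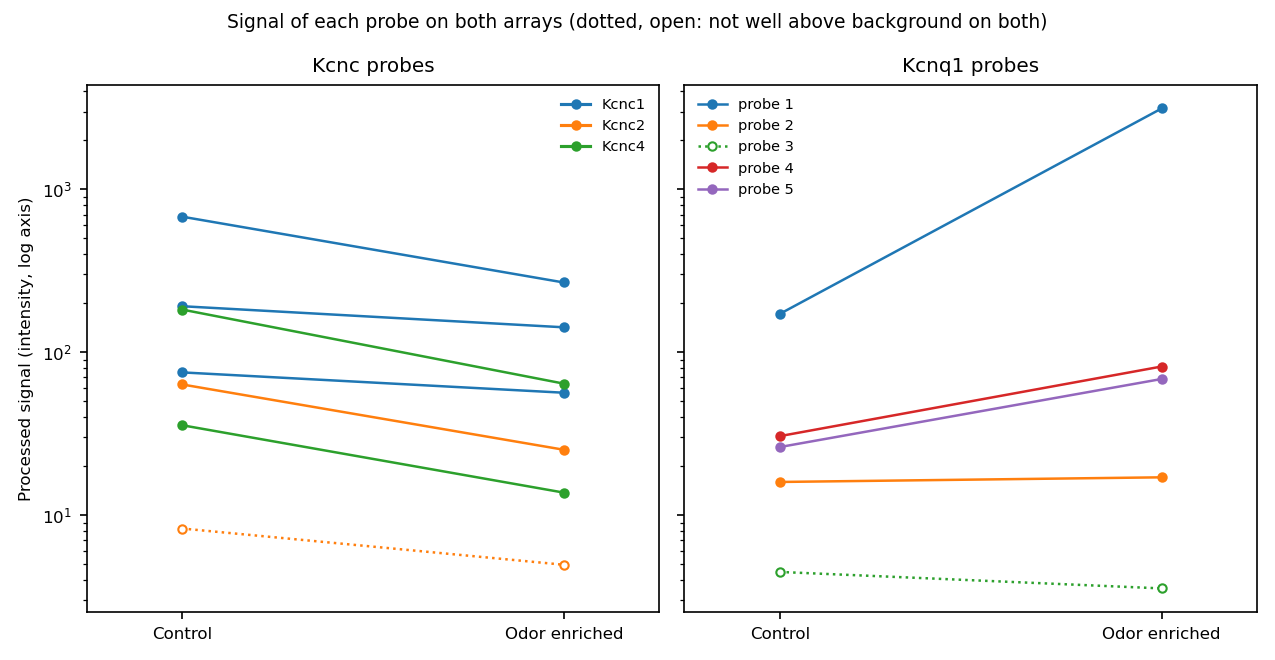
Processed signal (intensity, log axis) of each probe of Kcnc1, Kcnc2 and Kcnc4 (left) and each Kcnq1 probe (right) in the control and the odor-enriched array. Dotted lines with open circles are probes not well above background on both arrays. Every Kcnc line slopes down, while Kcnq1 probe 1 goes from 172 to 3136 and probe 2 from 16.0 to 17.0. Signals are not scaled between the arrays, whose 75th percentiles were 250.0 (control) and 202 (odor enriched). The slopes include that offset.

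The Shaker-related subfamily, Kcna, encodes the Kv1 channels, many of which sit in axons and set the threshold for firing. Of its 8 genes 7 were measured on both arrays, 1 was at least 2-fold lower and 0 were higher, with a median of -0.48 that turned to 0.03 with normexp. Kcna2, a main subunit of axonal channels, had a signal of 129 in the control against 41.7. It was 2.49-fold lower (-0.96 to -2.27), the lowest of all members, from a single probe, and stood at -0.62 with normexp and -0.99 with the series matrix values. Kcna1, which joins Kcna2 in axonal channels, had signals of 729.6 and 371 and a difference of -0.66. Kcna4, an inactivating subunit, had signals of 135 and 78.0 and a difference of -0.48. Kcna5, known from the heart and from vascular muscle, had signals of 33.3 and 17.0 and a difference of -0.66, which turned to 0.03 with normexp.

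The other 3 measured Kcna genes lay above 0, each by less than 2-fold. Kcna3, the mitral cell subunit, had signals of 12.4 and 12.2, both near the lowest signals that counted as above background, and a difference of 0.28. Kcna6 had signals of 1738 and 1727 and a difference of 0.30 on 1 probe. Its second probe was above background in the control only (6.04 and 4.60). Kcna7, known mainly from heart and skeletal muscle, had signals of 489 and 549 and a difference of 0.48. Kcna10 was not well above background on either array. A cDNA clone described in the files as a product of Kcna6 carries a name outside the rule and was not well above background on either array (0.985 and 2.14). Some of these genes are neighbours in the genome, with Kcna3, Kcna2 and Kcna10 within 158 kb on chromosome 3 and Kcna5, Kcna1 and Kcna6 within 204 kb on chromosome 6 (mm9, between outermost probes). Neighbours did not all share a direction, as Kcna2 stood at -1.32 beside Kcna3 at 0.28, and Kcna1 at -0.66 beside Kcna6 at 0.30.

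Of the Shab-related subfamily, Kcnb, which carries the delayed rectifier current of many neurons, Kcnb2 had signals of 112 and 107.5 on 1 probe. Its difference was 0.25 and stayed above 0 in 11 of 11 other settings, from 0.07 to 0.58.

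The Shal-related subfamily, Kcnd, carries the fast inactivating A-type current of dendrites, and its 3 genes all lay within 0.30 of 0. Kcnd2 had signals of 568 and 563 and a difference of 0.30. Kcnd3 stood at -0.05, with 1 probe going from 1578 to 1018 (-0.32) and the other from 32.5 to 30.7 (0.23). Kcnd1 stood at -0.05 too, but its 3 probes had differences of 0.64 (27.4 to 34.4), 0.13 (264 to 233) and -0.92 (39.6 to 16.9). The gene means of Kcnd1 and Kcnd3 near 0 thus average probes of opposite sign.

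The eag-related subfamily, Kcnh, had all of its 8 genes measured and calls in both directions, 1 gene in each, and its median was -0.22, turning to 0.12 with the series matrix values. Kcnh2, the ERG channel, known for a repolarizing current of the heart, had signals of 84.7 and 30.2 on its first probe. On the probe that spans an intron the signals were 84.3 and 29.6. The differences were -1.18 and -1.20, and the gene was 2.28-fold lower (-1.56 to -2.75). It stood at -0.42 with normexp and at -0.86 with the series matrix values. Kcnh3, expressed mainly in the forebrain, had signals of 6072 and 2611 on its single probe and a difference of -0.91, just short of 2-fold (1.87-fold lower), which was -1.08 with median centring.

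Kcnh8 was the only eag-related gene higher by 2-fold, and only just. Its probe had signals of 13.9 and 22.7 and was 2.02-fold higher (-4.16 to -3.15), while its second probe was not well above background on either array (4.06 and 3.57). The call held in 6 of 11 other settings and ended with median centring (0.84), quantile normalization (0.79), cyclic loess (0.94), normexp (0.44) and without the filter on dim probes (0.57), and scaling on spike-in probes turned it to -1.10 with their mean and -0.74 with their median. Kcnh1 stood at -0.25, with differences of 0.14 (37.4 to 33.2) and -0.63 (270.1 to 141). A further probe was above background in the control only (6.33 and 1.60). Kcnh4 stood at -0.23, with differences of -0.46 (192 to 112) and 0.01 (561 to 454). Kcnh5 (-0.13), Kcnh6 (0.38) and Kcnh7 (-0.20) completed the subfamily. The 2 measured probes of Kcnh6 lay at 0.19 and 0.58.

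The KvLQT-related subfamily, Kcnq, includes Kcnq3, a subunit of the channels that carry the M-current, which holds neurons back from repeated firing. Kcnq1 is known mainly from the heart and from epithelia, lies in an imprinted region and was the only member more than 3-fold different. Its gene mean was 4.24-fold higher with odor enrichment (-2.70 to -0.62, a difference of 2.08), but the 4 measured probes ran from 0.41 to 4.50. Probe 1, which the files assign to a record of a 5′ untranslated region, went from a signal of 172 to 3136, a difference of 4.50. Probe 2, which starts 39.5 kb further on and spans an intron, had 16.0 and 17.0, a difference of 0.41. Probe 3, a further stretch downstream, was not well above background on either array (4.47 and 3.54).

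Probes 4 and 5 start 317.7 kb from probe 1 and gave differences of 1.73 (30.5 to 81.7) and 1.70 (26.2 to 68.5). Since they share 51 of 60 bases, these amount to nearly the same measurement, and they differed by 0.03. Without probe 1 the mean was 1.28, and with the overlapping pair also counted once it was 1.06, both past 2-fold with the main scaling. Neither mean was computed under the other settings. Median centring shifts all genes alike and moved the median of all genes from 0.0016 to -0.17. A shift of that size takes the mean of 1.06 below 2-fold. The median of the 4 probes was 1.71. The difference of Kcnq1 was thus largest on the probe of the 5′ untranslated record, smaller on the pair at the other end and smallest on the probe that spans an intron. That last probe was dim on both arrays (16.0 and 17.0). With probe 1 included, Kcnq1 stayed at least 2-fold higher in 11 of the 11 other settings. Its difference ran from 1.54 with normexp to 4.50 with the brightest probe, which is probe 1. Scaled on spike-in probes it stood at -0.026 with their mean and 0.33 with their median. Kcnq1ot1, the RNA transcribed antisense from within Kcnq1, is no member and had 4 probes above background on both arrays, with differences of 0.96, 0.17, 0.06 and 0.55.

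Kcnq3 was above background in the control only, with signals of 6.88 and 3.37 on 1 probe and 6.30 and 2.15 on the other. Neither allowed a fold, since the lowest normalized signal counted as above background on the odor-enriched array was higher than the control level of these probes. Kcnq5 differed by less than 2-fold and stood at -0.11, with differences of -0.66 (28.9 to 14.7), 0.24 (19.1 to 18.2) and 0.09 (1251 to 1072).

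The silent subunits of the Kcng and Kcnv subfamilies change the current of Kcnb channels, and 0 of the 5 measured were 2-fold different in either direction. Kcng1 had signals of 49.8 and 25.4 and a difference of -0.66. Kcng2 stood at -0.16, a mean over a probe going from 1608 to 668 (-0.96) and a probe going from 29.7 to 37.1 (0.63). Kcng4 had signals of 13.3 and 14.5 and a difference of 0.45, and Kcng3 was not well above background on either array. Kcnv1 stood at -0.25, with probes at -0.38 and -0.12. Kcnv2, known from photoreceptors, had signals of 18.1 and 10.2 and a difference of -0.52. The median of Kcng was above 0 with the series matrix values and that of Kcnv with normexp.

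**Figure D3:**
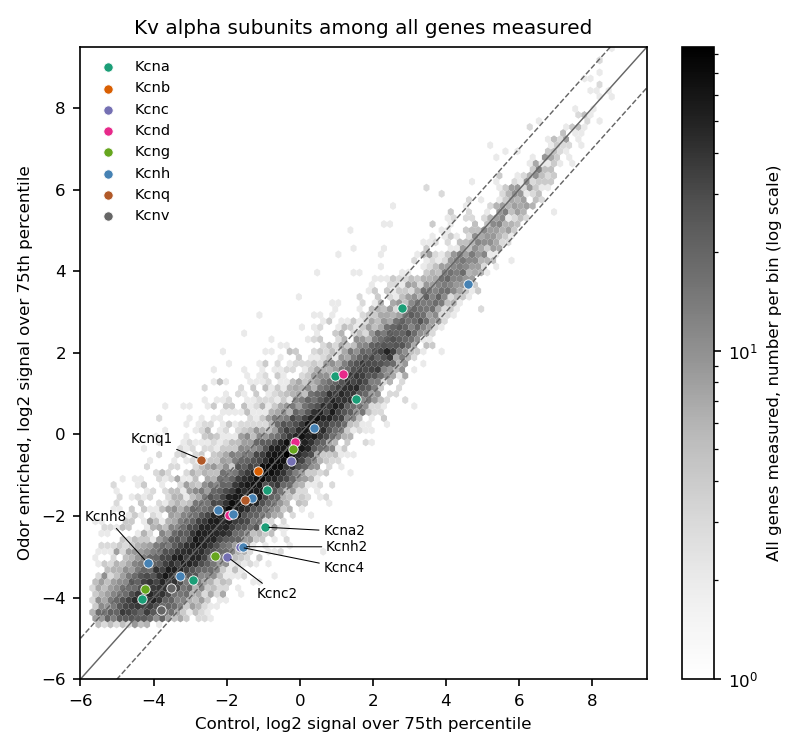
Gene level in the control array (horizontal axis) against the odor-enriched array (vertical axis), both as log2 signal over the array's 75th percentile, for all 23872 genes measured (grey, by number per bin) and the 29 measured members described (coloured by subfamily). The solid line marks equal values and the dashed lines 2-fold, and of the 6 labelled members Kcnq1 and Kcnh8 lie above the upper dashed line and the other 4 below the lower one.

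Probes of 1 gene often disagreed. Of the 12 members with more than 1 measured probe, 6 had probes of opposite sign (Kcnd1, Kcnd3, Kcng2, Kcnh1, Kcnh4 and Kcnq5), and in 3 the probes differed by more than 2-fold (Kcnd1, Kcng2 and Kcnq1). The matching shares over all genes are not given here, so no contrast with other genes is drawn. The other 17 measured members rest on a single probe. Only Kcnc4 and Kcnh2 had several measured probes that were all past 2-fold in 1 direction. The second Kcnc4 probe was dim, with signals of 35.6 and 13.7. When only the brightest probe of a gene was used, 5 members were lower and 2 higher, Kcnc1 (-1.03) being added, and the median stayed at -0.20. With several probes per gene, the brightest probe was lower than the mean of the others in 5 of 12 members, against 56.5% of 8234 genes in all.

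The partners of the alpha subunits gave small groups with mixed directions. For each count in these groups, the shares over all genes were 11.5% higher and 5.52% lower by 2-fold. The Kv5 and Kv9 silent subunits, named outside the rule, had 2 of 3 measured genes at least 2-fold lower, Kcns3 (103.7 to 29.5, difference -1.50) and Kcnf1 (105.4 to 41.9, difference -1.02), beside Kcns1 at -0.05, and a median of -1.02. Kcns2 was above background in the control only. The accessory subunits of Kv4 channels had 5 of 6 genes below 0 and a median of -0.86. Of these Kcnip2, a KChIP that speeds recovery of the A-type current, was 2.13-fold lower (110.4 to 41.8, difference -1.09). Kcnip1 (-0.94) was next, and Dpp6 (-0.22) and Dpp10 (0.18) were highest. The 3 Kcnd pore genes they serve stood at -0.05, 0.30 and -0.05. The cytoplasmic beta subunits, which bind Kv1 channels, had a median of 0.87, which turned negative under 1 of 11 other settings. Kcnab1 was 2.07-fold higher (50.1 to 83.7), Kcnab2 stood at 0.87 and Kcnab3 at -0.61.

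Of the KCNE accessory subunits, which include partners of Kcnq1, 2 of 5 on the array were measured. Kcne4 was 2.01-fold higher (22.0 to 35.6) and Kcne1l stood at -0.64. The clustering and scaffold proteins of Kv channels had 10 of 12 genes below 0, a median of -0.16 and 1 gene at least 2-fold lower. That gene was Adam23 (-1.84), a partner of Lgi1, with Amigo1 (-0.64) next, and Cntn2 (0.76) and Vapa (0.07) were the highest. The median of the KCNE subunits and that of the scaffold proteins changed sign under 3 and 1 of the 11 settings.

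Among the other potassium channel families, the inward rectifiers and the 2-pore channels reached lower values than any Kv alpha subunit described. Of 12 inward rectifiers measured, 3 were at least 2-fold lower and 1 higher, with a median of -0.37. Kcnj13 (-1.92) and Kcnj11 (-1.46), a subunit of ATP-sensitive channels, were lowest. Kcnj14 (0.71) and Kcnj8 (2.56), the subunit of ATP-sensitive channels in mural cells of vessels, were highest, and Kcnj8 is also 1 of the mural cell markers. Of 12 2-pore channels, 2 were higher and 2 lower, with a median of -0.16 that turned to 0.18 with the series matrix values. They ran from Kcnk1 (-1.78) and Kcnk3 (-1.09) to Kcnk7 (1.53) and the mechanosensitive Kcnk2 (1.75). Kcnk7 was dim, with signals of 9.21 and 21.5 on 1 probe. Of 10 calcium- and sodium-activated channels, 1 was lower and 0 higher, with a median of -0.63, from Kcnt1 (-1.23), a sodium-activated channel, and Kcnmb4 (-0.98) to Kcnt2 (0.62) and Kcnn3 (0.82). The differences between these families and the Kv alpha subunits were not tested, because no test was possible.

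**Figure D4:**
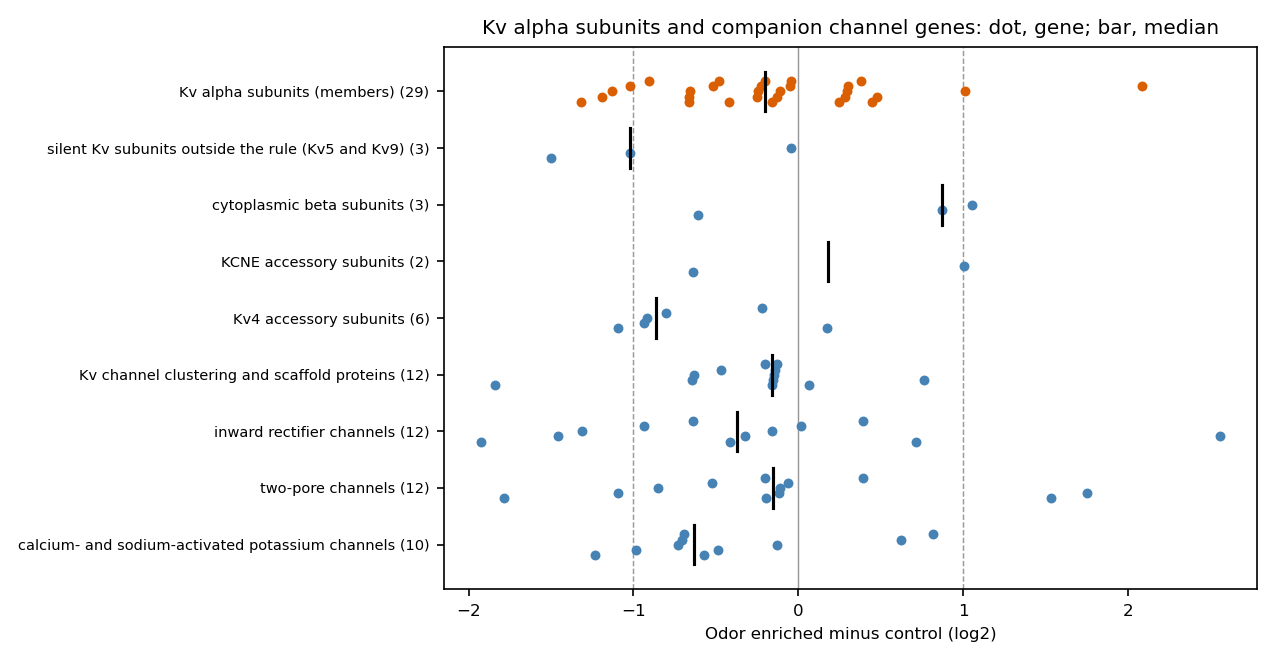
Difference between the odor-enriched and the control array (log2, horizontal axis) of each measured gene (dots) in the Kv alpha subunits and in 8 groups of related channel genes, with the number of genes measured in brackets, the median as a black bar and 2-fold as dashed lines. The medians run from -1.02 for the silent Kv5 and Kv9 subunits to 0.87 for the beta subunits, and that of the Kv alpha subunits is -0.20.

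Markers of several cell types differed between the arrays beside the channel genes, and their part in the channel differences was not tested. For the marker counts here and in the next paragraph, the shares over all genes were 11.5% higher and 5.52% lower by 2-fold. Mitral and tufted cell markers had 3 of 8 genes at least 2-fold lower and 1 higher, with a median of -0.65 and a summed level going from 4.77 to 3.60. The higher one was Tbx21, which T and NK cells also express. Granule and other GABA neuron markers had 0 of 10 past 2-fold in either direction, a median of -0.23 and a summed level of 5.72 and 5.22. Olfactory sensory neuron markers had 6 of 7 lower, a median of -1.51 and a summed level going from 8.92 to 6.80. Astrocyte markers had 2 of 7 lower, a median of -0.48 and a summed level going from 8.84 to 8.10.

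Markers of vessels and lymphocytes had higher medians with odor enrichment. T and NK cell markers had 10 of 10 higher, a median of 3.95 and a summed level going from 0.87 to 4.81. Kcna3, which T cells express strongly, stood at 0.28 on 1 probe near background (12.4 and 12.2). Whether T cells contribute to that value was not tested. Endothelial markers had 6 of 7 higher, a median of 1.80 and a summed level of 4.77 and 5.80, and mural cell markers 7 of 8 higher, a median of 1.99 and a summed level of 3.37 and 5.42. Oligodendrocyte markers had 2 of 8 higher, a median of 0.30 and a summed level of 8.54 and 9.66. Microglia and macrophage markers had 1 of 8 higher, a median of 0.34 and a summed level of 6.79 and 6.95. Of skeletal muscle markers 1 of 4 was higher (median 0.48, summed level -0.60 and 0.15), and of epithelial markers 1 of 4 was lower (median 0.05, summed level -1.05 and -1.23). The medians of the granule, microglia, muscle and epithelial markers changed sign in at least 1 of the 11 settings. With scaling on the mean of the spike-in probes only the T and NK cell median stayed above 0, at 1.84, while with their median probe the endothelial (0.048) and mural (0.23) medians were above 0 too. All markers of the neuronal, glial, vascular and lymphocyte lists that the array holds were well above background on both arrays.

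**Figure D5:**
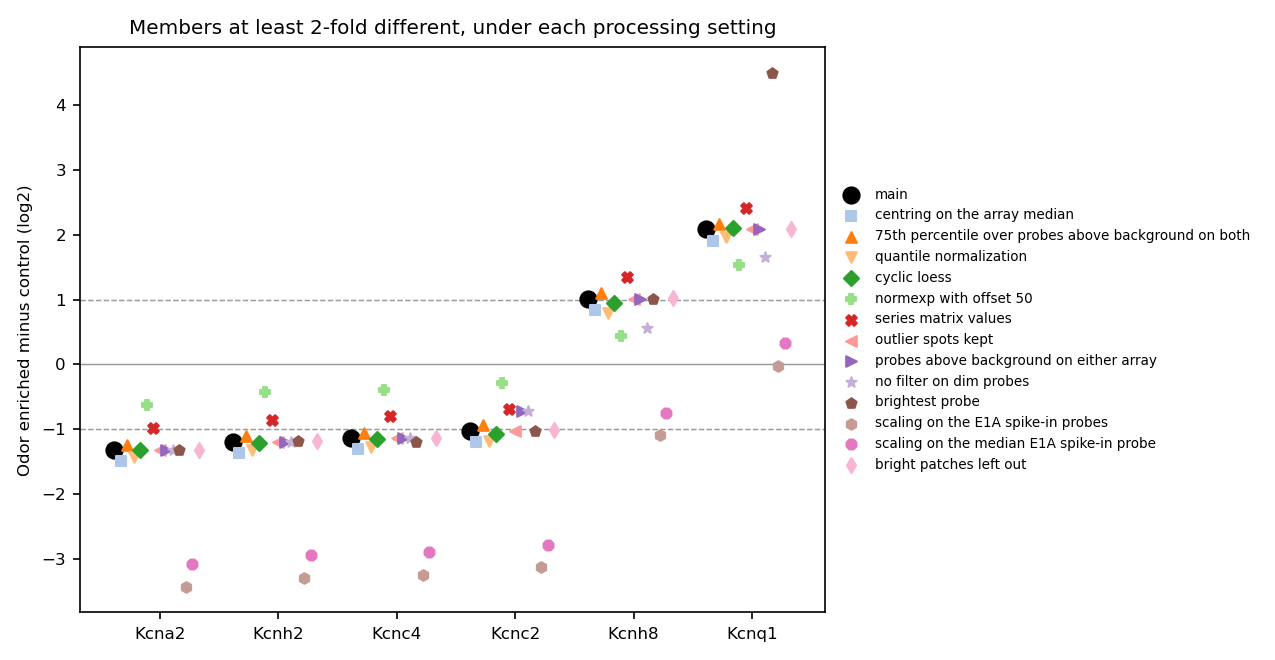
Difference between the odor-enriched and the control array (log2, vertical axis) of the 6 members at least 2-fold different, under each processing setting (symbols), with "main" as the values reported here and dashed lines at 2-fold. Kcnq1 stays above the upper line except under the spike-in scalings, and the 4 lower members cross back over the lower line with normexp and with the series matrix values, Kcnc2 also in 3 other settings.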

How the data were processed

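Intensities are the processed signals of Agilent Feature Extraction 11.5.1.1, background-subtracted and detrended within each array and not normalized between arrays, per the file headers. The deposited series matrix holds log2 values that equal the log2 signal minus a constant per array (within 0.01 for 91.7% of control and 99.9% of odor-enriched probes). Its medians are -9.48 and -8.98, and the sources used here do not give the origin or centring of that constant.

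Spots with outlier flags (122 and 183) were left out, log2 signals were averaged per probe, and the array's 75th percentile over probes was subtracted (7.97 and 7.66 log2). A probe was measured where its well-above-background flag was set on both arrays, and genes were counted at 2-fold. For probes above background on 1 array, the bound was set against the lowest normalized signal above background on the other (-5.69 control, -4.66 odor-enriched) or the probe's own value, whichever was higher. Summed levels are log2 of summed normalized signals. Of the genes that match the rule, 4 are not reported here and enter no count, median or figure of the members. The other 32 are named, with full values for those past 2-fold, on 1 array only, with discordant probes or with the brightest probes, and of each list the 2 highest and 2 lowest. The members and lists were chosen with earlier results of these data known. The alternatives were other scalings (median, percentile over detected probes, quantile, cyclic loess, spike-in probes), normexp with an offset of 50, the series matrix, other filters, the brightest probe, masking of patches (9 by 5 spots, limit 1.2) and other thresholds. Python 3.11.15 with pandas 2.3.3 and numpy 2.4.6, R 4.3.3 with limma 3.58.1 and matplotlib 3.10.9 were used, and the steps were tested on simulated data. The 2 arrays limit the precision.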

Additional observations from a re-analysis of the deposited data

How the results depend on the processing

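No paired analysis was possible because each group has 1 array, and no replicate could be left out. The median of the members, -0.20, was -0.38 with median centring, -0.12 with the percentile over detected probes, -0.14 with cyclic loess, 0.060 with normexp, 0.13 with the series matrix and -0.14 with no filter on dim probes. The members higher numbered 1 with median centring (8.95% of all genes), quantile normalization (9.99%), cyclic loess (11.7%), normexp (5.26%) and the 3-fold threshold (5.39%). The members lower numbered 0 with normexp (2.61% of all genes), the series matrix (2.44%) and the 3-fold threshold (1.38%), and 8 with 1.5-fold (16.3%). Without the filter 3 of 32 members were higher, where 25.3% of all genes were, and Kcna10 and Kcng3 among them were at background on both arrays.

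The spike-in probes changed most. Scaling on the mean of the 8 E1A probes gave 0 members higher, 28 lower and a median of -2.31, and turned Kcnq1 to -0.026 and Kcnh8 to -1.10, the endothelial median to -0.30 and the mural median to -0.12. After percentile scaling the spike-in probes were 1.54 to 1.93 higher in the odor-enriched array, except for 1 at 4.70, so their median was added after these values had been seen. It gave 0 higher, 27 lower and a median of -1.96, with Kcnh8 at -0.74, Kcnq1 at 0.33, the endothelial median at 0.048 and the mural median at 0.23. It moved the median of all genes to -1.76, and 83.5% of them were at least 2-fold lower. Which scaling is right was not tested.

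In the other 11 settings 18 of the 29 members kept their sign and 11 did not. Kcnd1 and Kcnq5 kept it in 7 of 11 and Kcnd3 and Kcnh7 in 8. The signals of Kcna3, Kcng4 and Kcnh8 lay near background, which limits their precision. Other dim odor-enriched signals included 10.2 for Kcnv2, 13.7 for Kcnc4 probe 2, 13.8 for a Kcnv1 probe and 17.0 for Kcnq1 probe 2.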
